A study of Mus musculus with 19 samples.

Results

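The core circadian clock genes are the transcription factors and repressors that make up the feedback loops of the molecular clock. The 10 members Arntl, Clock, Npas2, Cry1, Cry2, Per1, Per2, Per3, Nr1d1 and Nr1d2 were taken by symbol from the 55536 genes of the count table, and all 10 were found and passed the filter on low counts, among 16026 tested genes. They were chosen by earlier results of these data, that is, selected on differences between group means of the same CPM values, so the values by group below are a description of the members and the group contrasts are not offered as tests of them. The libraries were made from whole mouse kidney. Unilateral ureteral obstruction ties off the ureter of a single kidney and leads to tubule loss, inflammation and fibrosis. The healthy group had 4 libraries, the obstructed group given vehicle had 7, and the obstructed group given zalfermin, a long-acting analogue of the hormone FGF21, had 8. The labels call the healthy samples untreated, whereas the series text describes them as given vehicle. The labels also give the condition of both obstructed groups as MASH, the name of a liver disease, where the series text describes ureteral obstruction, and they give the drug by a code only. Summed proximal tubule markers had medians of 19727, 4244 and 4830 CPM in healthy, vehicle and zalfermin libraries. No proximal tubule, thick limb or collecting duct marker was at 0 in all libraries of any group. That is a weak criterion: Pvalb, a distal tubule marker, had 860 reads over the healthy libraries, 2 over the vehicle and 4 over the zalfermin libraries. Strain, sex, age, dose, length of treatment and the time of day at which kidneys were taken are stated in none of the sources used here. The labels do not tie replicates to separate animals, and the p-values below therefore measure only the spread between these libraries. The question put to the data was whether the activator and repressor arms of the clock moved in opposite directions under the drug and under obstruction. They can do so when the phase of the rhythm shifts, but opposite movement alone cannot tell a shift from a change of amplitude or mean level.

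In mammals ARNTL, also called BMAL1, pairs with CLOCK or with its relative NPAS2 and binds E-boxes, through which it activates the Per, Cry and Nr1d genes. PER and CRY proteins return to the nucleus and repress that pair, which closes the main loop. The REV-ERB receptors encoded by Nr1d1 and Nr1d2 repress, and the ROR receptors activate, Arntl, Npas2 and Nfil3 through RORE sites, and the factors DBP, TEF and HLF act on D-boxes, where NFIL3 opposes them. In the mouse kidney, as in other peripheral organs, Arntl and Npas2 peak at a time of day nearly opposite to Dbp, Nr1d1 and Per3, and the clock paces the transport of sodium and water.

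Each library held between 12209122 and 14844103 counted reads, and levels are given as CPM, counts scaled to a common library size with TMM factors. No pair of libraries of the same group agreed within sampling noise. The closest such pair had a chi-square of 5.55 per degree of freedom, and pairs across groups were not compared. Vehicle replicate 6 stood apart, with 19788 genes detected where the rest of its group had 21374 to 22216, and with 1.10% of its reads from mitochondrial genes against 3.09% to 4.21%. TMM factors were 0.751 to 0.843 in healthy libraries, 1.02 to 1.11 in vehicle libraries and 1.02 to 1.08 in zalfermin libraries, so healthy CPM values depend on the scaling more than the others do.

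Under the drug the estimates of most members split into opposite arms. Against vehicle, Arntl and Npas2 were lower by 2.16-fold and 1.71-fold, and Per1, Per2, Per3, Nr1d1, Nr1d2 and Cry2 were higher by 1.42-fold to 1.88-fold. The intervals of these genes did not include 0, but only Arntl, Per3, Nr1d1 and Nr1d2 had an edgeR adjusted p under 0.05. Under obstruction alone the split was partial. Arntl and Npas2 were lower than in healthy kidneys by 1.89-fold and 2.20-fold. Per1, Per2 and Per3 were higher by 1.85-fold, 1.50-fold and 1.53-fold. Nr1d1, however, was lower by 2.33-fold and Cry2 by 1.28-fold, and Nr1d2 was 1.13-fold higher. The intervals of Per2, Per3, Cry2 and Nr1d2 included 0 in this comparison. Clock and Cry1 differed by no more than 1.21-fold in either direction between any 2 of the 3 groups. As a bulk measurement cannot tell apart fewer cells of a type from less RNA per cell, these are levels in whole kidney RNA.

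**Figure D1:**
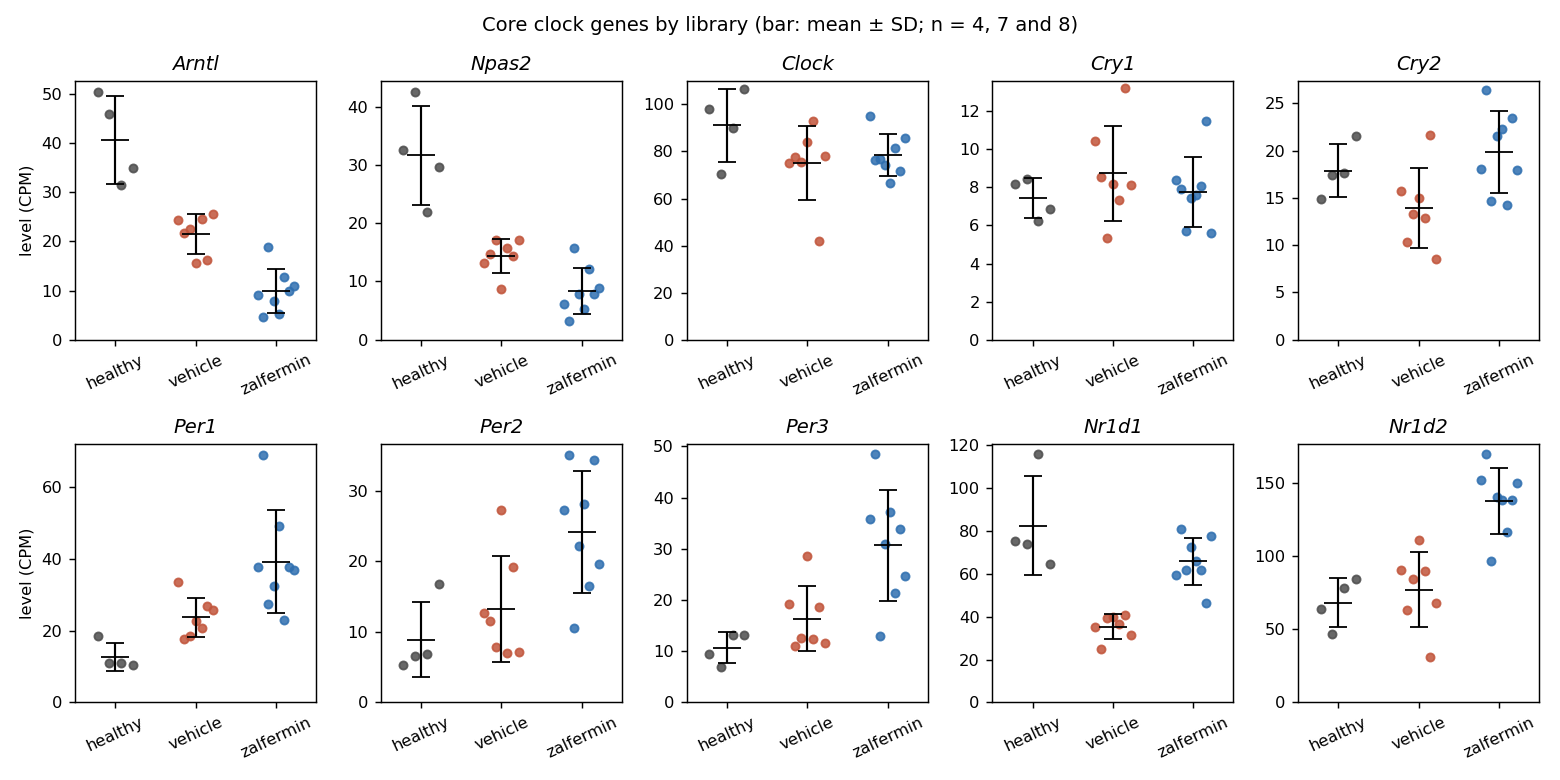
Level in CPM (vertical axes, from 0) of each core clock gene in the 4 healthy, 7 vehicle and 8 zalfermin libraries; each point is a library, and bars give the mean and SD. Arntl and Npas2 step down from healthy to vehicle to zalfermin, Per1, Per2 and Per3 have their highest means under zalfermin, and the Nr1d1 vehicle libraries lie at 24.8 to 40.7 CPM, below every other library.

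The activators come first. Arntl (ENSMUSG00000055116, chromosome 7, 113207465 to 113314126, plus strand, GRCm38) encodes the obligate partner of CLOCK and NPAS2. Its healthy libraries read 50.3, 46.0, 31.4 and 34.9 CPM. Its vehicle libraries ran from 15.6 through a median of 22.5 to 25.6 CPM, and its zalfermin libraries from 4.60 through 9.53 to 18.9 CPM. Healthy and vehicle libraries did not overlap, and only zalfermin replicate 3, at 18.9 CPM, reached into the vehicle range. The log2 difference of vehicle from healthy was -0.92 (SE 0.248, 95% interval -1.43 to -0.41), and that of zalfermin from vehicle was -1.11 (SE 0.217, interval -1.56 to -0.66), with 8 of 8 zalfermin libraries under the vehicle median. Zalfermin libraries were thus 4.09-fold under healthy ones. A RefSeq start site of Arntl is shown because REV-ERB and ROR act on this gene through RORE sites; it spans chr7:113207261-113207560 of GRCm38.p6 on the plus strand, from 250 bases before the start to 50 after it, and the capitals mark the single match to the RORE consensus, at positions 27 to 37 after the start.
Arntl: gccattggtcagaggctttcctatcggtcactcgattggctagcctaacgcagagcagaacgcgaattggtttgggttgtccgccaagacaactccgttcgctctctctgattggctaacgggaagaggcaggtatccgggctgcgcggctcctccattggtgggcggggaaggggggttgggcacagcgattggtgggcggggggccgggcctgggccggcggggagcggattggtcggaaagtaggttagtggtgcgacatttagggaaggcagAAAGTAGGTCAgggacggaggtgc
The RORE consensus was present in 0.384% of the 32851 promoters of this length, searched on both strands, and in 1 of the 13 start sites of the 9 members that had an entry. The match describes the sequence only.

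Npas2 (ENSMUSG00000026077, chromosome 1, 39193731 to 39363236, plus strand), which can stand in for CLOCK, followed Arntl. Its healthy libraries read 32.6, 42.4, 22.005 and 29.6 CPM. The vehicle libraries ran from 8.75 through 14.6 to 17.1 CPM and the zalfermin libraries from 3.29 through 7.84 to 15.8 CPM. Healthy libraries lay above all vehicle libraries, whereas 3 zalfermin libraries fell within the vehicle range. The log2 difference of vehicle from healthy was -1.13 (SE 0.265, interval -1.68 to -0.59), and that of zalfermin from vehicle was -0.77 (SE 0.232, interval -1.25 to -0.29). In 7 of 8 zalfermin libraries Npas2 was under the vehicle median. Clock (ENSMUSG00000029238, chromosome 5, 76209868 to 76304792, minus strand), the usual partner of ARNTL, showed no such steps. Its healthy libraries read 98.2, 70.2, 89.8 and 106.5 CPM, its vehicle libraries ran from 42.1 through 77.8 to 92.8 CPM and its zalfermin libraries from 66.5 through 76.5 to 95.3 CPM. The 3 groups overlapped, and the lowest value was vehicle replicate 6. The log2 differences were -0.28 (SE 0.148, interval -0.59 to 0.03) for vehicle from healthy and 0.07 (SE 0.123, interval -0.19 to 0.32) for zalfermin from vehicle. The second of these turned to -0.05 without vehicle replicate 6.

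Among the repressors of the main loop, the Per genes were higher under zalfermin. Per1 (ENSMUSG00000020893, chromosome 11, 69095217 to 69109960, plus strand) also answers directly to glucocorticoids and to cyclic AMP signalling. It read 18.6, 11.01, 11.04 and 10.4 CPM in healthy libraries. It ran from 17.6 through 22.7 to 33.6 CPM in vehicle libraries and from 22.9 through 37.4 to 69.1 CPM in zalfermin libraries. Only healthy replicate 1 reached the vehicle range, and 5 zalfermin libraries exceeded every vehicle library. The log2 difference was 0.89 (SE 0.252, interval 0.37 to 1.41) for vehicle from healthy and 0.73 (SE 0.194, interval 0.32 to 1.13) for zalfermin from vehicle. Per1 was the only member whose interval lay above 0 in both of these comparisons, which share the vehicle libraries.

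Per2 (ENSMUSG00000055866, chromosome 1, 91415982 to 91459324, minus strand), whose protein recruits CRY to the repressing complex, was uneven within groups. Its healthy libraries read 5.25, 6.57, 6.91 and 16.8 CPM, so that replicate 4 stood well above the others. The vehicle libraries ran from 6.97 through 11.6 to 27.2 CPM and the zalfermin libraries from 10.53 through 24.7 to 35.1 CPM. The groups overlapped, with 4 zalfermin libraries above the highest vehicle library. The log2 difference was 0.58 (SE 0.393, interval -0.23 to 1.40) for vehicle from healthy and 0.87 (SE 0.305, interval 0.24 to 1.50) for zalfermin from vehicle. Without healthy replicate 4 the difference of vehicle from healthy was 1.08, and without vehicle replicate 4 that of zalfermin from vehicle was 1.15.

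Per3 (ENSMUSG00000028957, chromosome 4, 151003652 to 151044665, minus strand) is dispensable for the rhythm itself in mice and is a sensitive readout of it. Its healthy libraries read 9.43, 6.93, 13.2 and 13.2 CPM. The vehicle libraries ran from 11.1 through 12.7 to 28.6 CPM and the zalfermin libraries from 13.04 through 32.4 to 48.4 CPM. Most vehicle libraries sat near the healthy ones, and 5 zalfermin libraries exceeded the highest vehicle library, replicate 4. The log2 difference was 0.61 (SE 0.305, interval -0.02 to 1.24) for vehicle from healthy and 0.91 (SE 0.237, interval 0.42 to 1.40) for zalfermin from vehicle, with 8 of 8 zalfermin libraries above the vehicle median. The promoters of Per1 and Per3 are printed because DBP, which acts on D-boxes, was the clock output that differed most under the drug; both are from RefSeq on GRCm38.p6, at chr11:69098699-69098998 on the plus strand and chr4:151044616-151044915 on the minus strand. Capitals mark an E-box (CACGTG) and then a D-box (TTATGNAA) in Per1, and 2 D-boxes in Per3.
Per1: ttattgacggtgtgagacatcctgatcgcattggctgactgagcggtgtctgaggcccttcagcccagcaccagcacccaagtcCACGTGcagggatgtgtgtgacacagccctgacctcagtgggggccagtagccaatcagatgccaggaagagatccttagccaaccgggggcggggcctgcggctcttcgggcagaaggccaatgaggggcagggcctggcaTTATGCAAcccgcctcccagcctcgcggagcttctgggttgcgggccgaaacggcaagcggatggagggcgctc
Per3: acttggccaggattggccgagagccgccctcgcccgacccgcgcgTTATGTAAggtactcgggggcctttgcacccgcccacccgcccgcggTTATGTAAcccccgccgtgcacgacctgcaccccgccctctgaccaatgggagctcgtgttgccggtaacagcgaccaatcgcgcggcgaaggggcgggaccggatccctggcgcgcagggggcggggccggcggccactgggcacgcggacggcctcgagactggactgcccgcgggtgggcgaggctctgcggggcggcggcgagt
The E-box of Per1 lies at positions -166 to -161 from the start, and its D-box at -24 to -17. The D-boxes of Per3 lie at positions -205 to -198 and -158 to -151. On either strand the D-box letters occurred in 3.38% and the E-box letters in 7.15% of the 32851 promoters. Among the members only these 2 start sites held a D-box, and Per1 and Cry1 were the members with an E-box; in the other start sites the letters were not in this window.

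The cryptochromes carry most of the repression in the PER and CRY complex, and their levels differed little from group to group for Cry1 and more for Cry2. Cry1 (ENSMUSG00000020038, chromosome 10, 85131700 to 85185064, minus strand) read 8.18, 8.43, 6.24 and 6.88 CPM in healthy libraries. It ran from 5.35 through 8.15 to 13.2 CPM in vehicle libraries and from 5.62 through 7.75 to 11.5 CPM in zalfermin libraries. The groups overlapped throughout. Vehicle differed from healthy by a log2 value of 0.23 (SE 0.208, interval -0.20 to 0.66), and zalfermin from vehicle by -0.17 (SE 0.167, interval -0.51 to 0.18). Cry2 (ENSMUSG00000068742, chromosome 2, 92403646 to 92434043, minus strand) read 14.9, 17.4, 17.6 and 21.6 CPM in healthy libraries. It ran from 8.55 through 13.3 to 21.7 CPM in vehicle libraries and from 14.2 through 19.8 to 26.5 CPM in zalfermin libraries. The 3 groups overlapped, although all 8 zalfermin libraries were above the vehicle median. On the log2 scale vehicle differed from healthy by -0.36 (SE 0.200, interval -0.77 to 0.06) and zalfermin from vehicle by 0.51 (SE 0.165, interval 0.17 to 0.85). Vehicle replicate 6 held the highest vehicle value of both cryptochromes, and without it the differences of Cry1 were 0.05 and -0.05 and those of Cry2 were -0.55 and 0.64.

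The REV-ERB genes of the second loop differed from each other under obstruction. Nr1d1 (ENSMUSG00000020889, chromosome 11, 98767932 to 98775333, minus strand) read 75.3, 74.0, 116.0 and 64.3 CPM in healthy libraries. It ran from 24.8 through 36.6 to 40.7 CPM in vehicle libraries and from 46.3 through 63.9 to 80.9 CPM in zalfermin libraries. No vehicle library overlapped either other group, and 4 zalfermin libraries lay within the healthy range. The log2 difference was -1.22 (SE 0.154, interval -1.54 to -0.90) for vehicle from healthy, 0.89 (SE 0.132, interval 0.62 to 1.17) for zalfermin from vehicle and -0.33 (SE 0.151, interval -0.64 to -0.01) for zalfermin from healthy. The last of these was -0.11 without healthy replicate 3 and -0.43 without healthy replicate 4, and it was -0.42 with RLE factors, -0.41 by DESeq2, -0.45 under voom and -0.39 in a 2-group fit. Under these 4 settings, and without healthy replicate 4 or zalfermin replicate 2 or 8, it passed the threshold that it misses in the edgeR fit of all 19 libraries. Nr1d1 shares 263 exon bases, 8.55% of its exon length, with Thra on the opposite strand. Thra averaged 102.4, 83.6 and 67.5 CPM in the healthy, vehicle and zalfermin groups, lower under obstruction and lower again under the drug. How the counting treated strand is not stated, and the part of shared reads in the Nr1d1 values was not tested. The read ratio of Nr1d1 to Thra had a lowest, median and highest value of 0.656, 0.731 and 1.11 in healthy, 0.273, 0.425 and 0.561 in vehicle and 0.834, 0.927 and 1.18 in zalfermin libraries. The vehicle libraries again lay apart from both other groups. The promoter of Nr1d1 (RefSeq, GRCm38.p6, chr11:98775328-98775627, minus strand) is shown because E-boxes are the route by which ARNTL acts on it. The capitals mark its only match among the motifs searched, the E-box variant CACGTT read on the other strand, at positions -28 to -23.
Nr1d1: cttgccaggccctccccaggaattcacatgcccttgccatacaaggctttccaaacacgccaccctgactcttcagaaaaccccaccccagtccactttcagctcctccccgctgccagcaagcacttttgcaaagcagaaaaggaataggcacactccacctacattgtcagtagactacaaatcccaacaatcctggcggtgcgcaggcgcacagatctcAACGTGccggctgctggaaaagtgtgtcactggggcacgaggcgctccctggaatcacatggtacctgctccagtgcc
That variant was present in 4.68% of the 32851 promoters.

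Nr1d2 (ENSMUSG00000021775, chromosome 14, 18204054 to 18239127, minus strand), the second REV-ERB gene, read 63.8, 46.6, 78.1 and 84.4 CPM in healthy libraries. It ran from 31.0 through 84.5 to 111.1 CPM in vehicle libraries and from 96.7 through 139.5 to 169.9 CPM in zalfermin libraries. Healthy and vehicle libraries overlapped, while 7 zalfermin libraries exceeded every vehicle library. The log2 difference was 0.17 (SE 0.227, interval -0.30 to 0.64) for vehicle from healthy and 0.84 (SE 0.187, interval 0.45 to 1.23) for zalfermin from vehicle. The read ratio of Nr1d1 to Nr1d2 showed the parting of the pair. It was 1.18, 1.59, 1.49 and 0.763 in healthy libraries, ran from 0.360 through 0.406 to 1.31 in vehicle libraries, and from 0.335 through 0.497 to 0.638 in zalfermin libraries. The vehicle value of 1.31 was replicate 6, in which Nr1d2 was at its lowest; the next vehicle value was 0.466. Under the drug both genes were higher and the ratio stayed near that of the other vehicle libraries, whereas under obstruction Nr1d1 was lower and the interval of Nr1d2 included 0.

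Set side by side over the 10 members, edgeR's quasi-likelihood test with Benjamini-Hochberg adjustment over all 16026 genes put 4 past 0.05 in vehicle against healthy (Per1 higher; Arntl, Npas2 and Nr1d1 lower). In that comparison 64.8% of all tested genes passed, 36.2% higher and 28.6% lower, and the median log2 difference was -0.05 for the members and 0.09 for all tested genes. In zalfermin against vehicle 4 members passed (Per3, Nr1d1 and Nr1d2 higher; Arntl lower), where 1.81% of all tested genes did, 0.867% higher and 0.942% lower; the medians were 0.62 and 0.01. In zalfermin against healthy 6 members passed (Per1, Per2, Per3 and Nr1d2 higher; Arntl and Npas2 lower), where 64.3% of all genes did, 37.3% higher and 27.0% lower; the medians were 0.11 and 0.13. The groups did not overlap in CPM for 3 members in vehicle against healthy, for 1 in zalfermin against vehicle and for 4 in zalfermin against healthy, against 44.2%, 0.605% and 51.2% of all tested genes. These comparisons share libraries and the members were listed with them known, so the counts are given as a description. Leaving out single libraries moved the count for the drug between 2 and 6: 2 members without vehicle replicate 2, vehicle replicate 7 or zalfermin replicate 2, and 6 without vehicle replicate 6 or zalfermin replicate 3. For vehicle against healthy, 2 were higher without healthy replicate 4 and 5 were lower without vehicle replicate 6. Of the members that differed under the drug, Arntl and Nr1d1 passed in all 15 such fits, Nr1d2 in 12 and Per3 in 4.

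**Figure D2:**
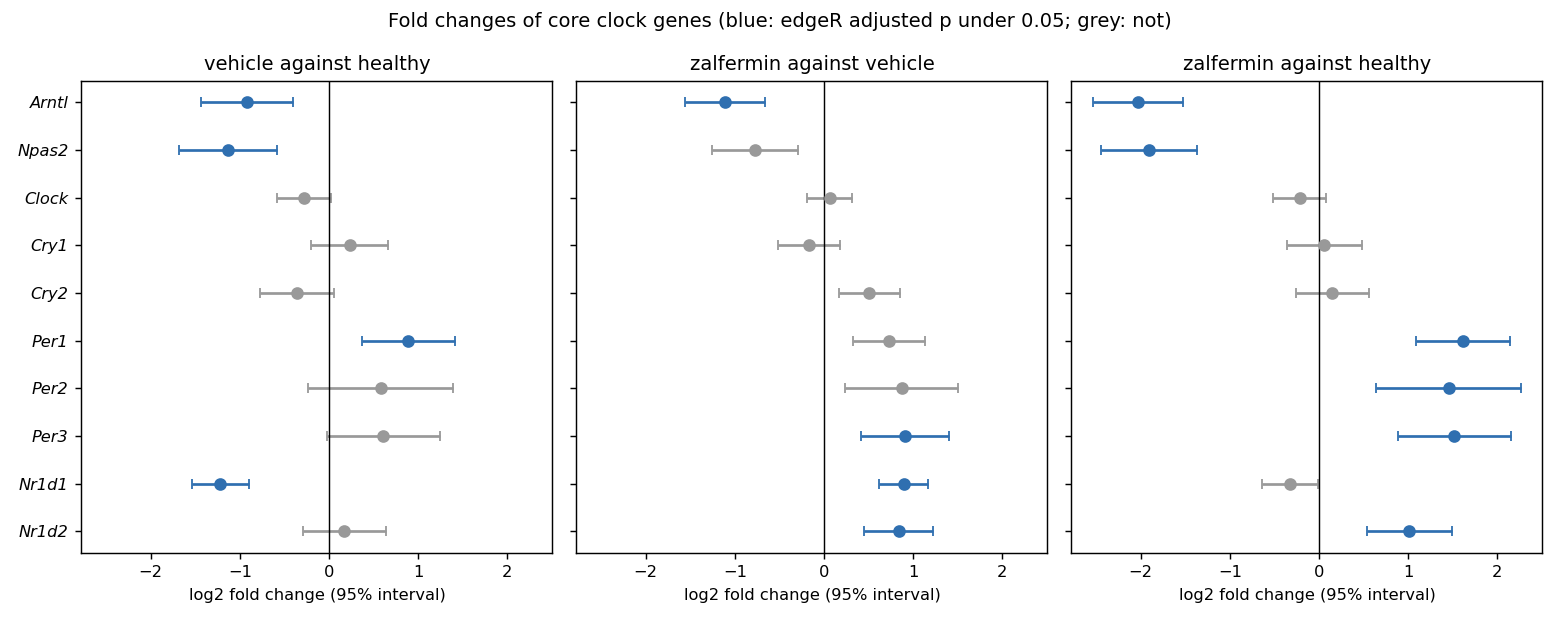
Log2 fold change (horizontal axes) of each core clock gene in the 3 comparisons, with 95% intervals; blue marks edgeR adjusted p under 0.05. Arntl lies below 0 in all 3 panels, Per1 above 0 in all 3, and Nr1d1 at -1.22 under obstruction and 0.89 under the drug.

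Ratios of reads within a library do not depend on scaling between libraries, and they set the arms against each other directly. The ratio of Per3 to Arntl was 0.187, 0.151, 0.421 and 0.377 in healthy libraries. It ran from 0.455 through 0.564 to 1.84 in vehicle libraries and from 0.691 through 3.66 to 10.54 in zalfermin libraries. Healthy and vehicle libraries did not overlap, and 6 of the 8 zalfermin libraries exceeded every vehicle library. The ratio of Nr1d1 to Arntl behaved otherwise: its lowest, median and highest values were 1.49, 1.73 and 3.69 in healthy libraries, 1.14, 1.49 and 2.57 in vehicle libraries and 3.27, 6.78 and 17.6 in zalfermin libraries. Under obstruction both genes were lower and their ratio stayed in the healthy range or near it, and under the drug it lay above every vehicle library. For Dbp to Arntl the values were 0.118, 0.314 and 0.477, then 0.359, 0.642 and 2.25, then 1.47, 5.83 and 24.2. Since each library gives a single time and the sources used here give no time of collection, an earlier or later phase, a change of amplitude and a change of mean level cannot be told apart. Whether kidneys of the 3 groups were collected at the same hour was not tested.

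Libraries of the same group also differed in both arms. Within the 8 zalfermin libraries, replicate 3 had the highest Arntl and Npas2 and the lowest Per2, Per3, Nr1d2 and Dbp, and replicate 2 had the lowest Arntl and Npas2 and the highest Per1, Per2, Per3, Cry2, Nr1d1, Nr1d2 and Dbp. In zalfermin replicate 2 Arntl was at 4.60 CPM and Per3 at 48.4 CPM; in replicate 3 they were at 18.9 and 13.04 CPM. Arntl and Per3 had a Pearson r of log2 CPM of -0.92 over the 8 zalfermin libraries (exact permutation p = 0.000744, two-sided; adjusted p = 0.00397 over 8 such relations), with a Spearman rho of -0.93 (exact permutation p = 0.00223, adjusted 0.00893). Without the 2 libraries farthest from the Arntl median r was -0.76 over 6, and without replicate 3 it was -0.87 with an adjusted exact permutation p of 0.0516. Arntl and Npas2 had an r of 0.95 (exact permutation p = 0.000992, adjusted 0.00397) and a rho of 0.93 (exact permutation p = 0.00223, adjusted 0.00893), and r was 0.85 without the 2 farthest libraries. Nr1d1 did not follow them: its r was -0.40 with Arntl (exact permutation p = 0.331, adjusted 0.378; rho -0.45, exact p = 0.267, adjusted 0.306) and 0.17 with Per3 (exact permutation p = 0.685, adjusted 0.685; rho 0.24, exact p = 0.582, adjusted 0.582). Without the 2 libraries farthest on the x axis these were -0.15 and 0.18.

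Within the 7 vehicle libraries the same pairs gave an r of -0.74 for Arntl and Per3 (exact permutation p = 0.0585, adjusted 0.123; rho -0.50, exact p = 0.267, adjusted 0.306) and of 0.71 for Arntl and Npas2 (exact permutation p = 0.0613, adjusted 0.123; rho 0.71, exact p = 0.0881, adjusted 0.176). Neither passed the adjustment. Without vehicle replicate 1 both did, with r of -0.90 (adjusted exact permutation p = 0.0417) and 0.79 (adjusted exact permutation p = 0.0259). Without the 2 libraries farthest from the Arntl median, which left 5, r was 0.25 and 0.13, so both relations rest on those libraries. Vehicle replicates 4 and 6 had the lowest Arntl, at 15.6 and 16.3 CPM, with the highest Per2, at 27.2 and 19.1 CPM, and the highest Dbp. Arntl and Nr1d1 gave -0.45 (exact permutation p = 0.308, adjusted 0.378; rho -0.57, exact p = 0.200, adjusted 0.306; 0.36 without the 2 farthest) and Nr1d1 and Per3 gave 0.59 (exact permutation p = 0.153, adjusted 0.244; rho 0.71, exact p = 0.0881, adjusted 0.176; 0.26 without them). The difference between the groups' correlations was not tested, and the 4 healthy libraries were too few for one.

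**Figure D3:**
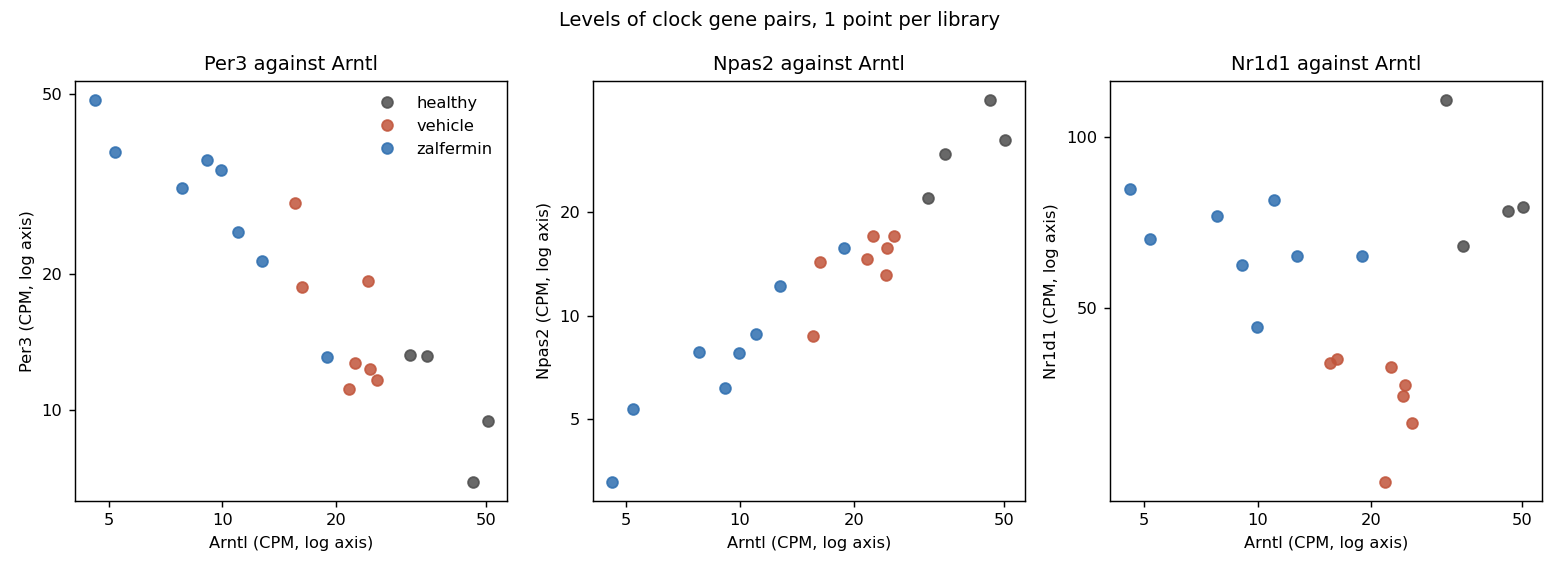
Level of Per3, Npas2 and Nr1d1 (vertical log axes, CPM) against Arntl (horizontal log axis, CPM); each point is a library, coloured by group. Per3 falls and Npas2 rises along Arntl within the zalfermin libraries (r -0.92 and 0.95), while the Nr1d1 points of the vehicle libraries lie below those of the other groups.

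The spread within a group was also uneven between members. Over the zalfermin libraries the SD of log2 CPM was 0.655 for Arntl and 0.685 for Npas2, at percentiles 95.1 and 95.8 of the 16026 tested genes, whose median was 0.175. Per2 and Per3 each had 0.582, at percentile 92.7, whereas Nr1d1 had 0.255, Nr1d2 0.252 and Clock 0.159, at percentiles 67.2, 66.8 and 44.7. The highest zalfermin library had 4.11 times the Arntl and 4.79 times the Npas2 of the lowest. In vehicle libraries Per2 was widest with an SD of 0.745, at percentile 93.6, and Arntl was ordinary with 0.289, at percentile 54.5. In healthy libraries Per2 was again widest, with 0.728 at percentile 94.0. Genes with low counts have a wider spread on this scale, and these percentiles are not adjusted for level.

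**Figure D4:**
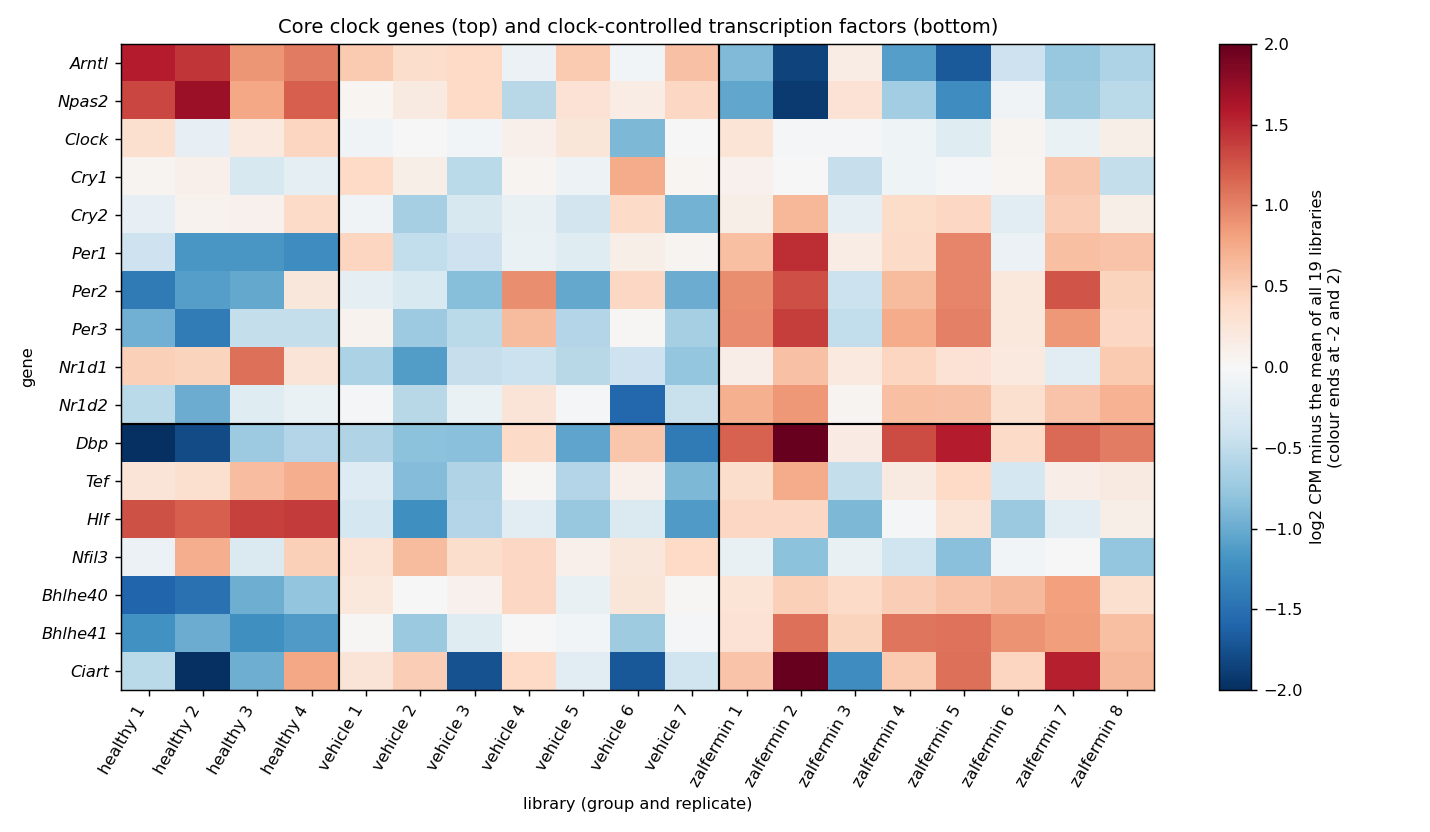
Log2 CPM minus the mean of all 19 libraries (colour, ending at -2 and 2) for the core clock genes and 7 clock-controlled transcription factors (rows) in each library (columns, by group). In zalfermin replicates 2 and 5 Arntl and Npas2 are at their lowest and Dbp at its highest, and zalfermin replicate 3 has the highest Arntl and Npas2 of its group.

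Per kilobase of exon, the order of the members' levels shifted between groups. In healthy kidneys Nr1d1 led with 26.8 CPM per kb, followed by Nr1d2 with 12.6, Clock with 6.64, Npas2 with 6.60 and Arntl with 5.41, and then by Cry2, Per1, Cry1 and Per2, with Per3 last at 1.11. Libraries of neighbouring genes overlapped except between Nr1d1 and Nr1d2, Nr1d2 and Clock, and Arntl and Cry2. In vehicle libraries Nr1d2 led with 14.2 CPM per kb, ahead of Nr1d1 with 11.5 and Clock with 5.47, and Per3 was last at 1.70; the sole gap lay between Nr1d1 and Clock. In zalfermin libraries Nr1d2 had 25.5 CPM per kb and Nr1d1 21.4, Per1 followed with 6.96 and Clock with 5.72, and Npas2 and Arntl were last with 1.76 and 1.32. Here too neighbours overlapped, other than Nr1d1 and Per1. Arntl thus went from the fifth place to the last.

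Deviations from group means over all 19 libraries were compared among 11632 genes averaging 5 CPM or more. Provisional symbols, such as Gm numbers and Rik names, and further genes of a repeated symbol were left out. The genes most like Arntl were Npas2 (r 0.90), Elk3 (0.83), Col4a1 (0.83), Dtx4 (0.81) and Col4a2 (0.81). The most opposite were Usp2 (-0.86), Dbp (-0.86), Ttc38 (-0.85), Pcyox1 (-0.85) and Slc19a1 (-0.84). Per3 (-0.83) was the sixth and Tef (-0.83) the seventh most opposite, and Per2 and Cry2 had -0.71 and -0.68. Nr1d1 was most like Gpatch2l (0.84), Cds2 (0.78), R3hdm2 (0.78), Rtel1 (0.73) and Kif16b (0.72) and most opposite to Hspbap1 (-0.78), Spcs2 (-0.76), Usp27x (-0.75), Vtcn1 (-0.74) and Rdh10 (-0.73), none of which is a clock gene in the lists used here. Its r was -0.38 with Arntl and 0.14 with Nr1d2. These values are descriptions over libraries that share a table and a scaling.

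Outside the members, 37 other clock genes were listed and all 37 were tested. The rule did not use their values, although the lists were drawn up with earlier results of these data known. Under the drug, 5 passed the edgeR test with adjustment over all genes: Dbp, Bhlhe41, Wee1 and Nampt were higher and Nfil3 was lower, where 1.81% of all tested genes passed. The other 32 did not pass, and the median log2 difference was 0.12, beside 0.01 for all tested genes. By DESeq2 10 passed and by limma with voom 11, and without zalfermin replicate 3 or 6 the edgeR count was 8.

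Among the 7 clock-controlled transcription factors, Dbp, a D-box activator, was the one that rose most under zalfermin. Its vehicle libraries ran from 9.20 through 13.9 to 36.6 CPM and its zalfermin libraries from 27.7 through 55.5 to 111.1 CPM. They overlapped through vehicle replicates 4 and 6, and 8 of 8 zalfermin libraries were above the vehicle median. Dbp rose by 1.61 on the log2 scale (SE 0.314, edgeR adjusted p = 0.00895). It shares 539 exon bases with Sphk2 on the opposite strand, whose mean was 45.6 CPM in vehicle and 45.9 CPM in zalfermin libraries. Bhlhe41, a repressor at E-boxes, rose by 1.07 (SE 0.154, adjusted p = 0.00122), from 2.87 to 4.98 CPM in vehicle libraries to 6.01 to 10.7 CPM in zalfermin libraries, with no overlap. Nfil3, which represses at D-boxes and is itself repressed by REV-ERB, fell by 0.72 (SE 0.154, adjusted p = 0.0170), from 19.6 to 28.3 CPM down to 10.2 to 18.1 CPM, again with no overlap. Tef, Hlf, Bhlhe40 and Ciart had log2 differences of 0.58, 0.60, 0.38 and 1.34 and did not pass (adjusted p = 0.0841, 0.103, 0.0900 and 0.187). Rora and Rorb, whose products activate at RORE sites, had log2 differences of 0.26 and -0.08 and did not pass either.

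Obstruction alone gave another pattern in these factors, against the background of 64.8% of genes past the threshold. Hlf fell by 1.93 (SE 0.214, adjusted p = 5.27e-08), from 97.2 to 112.6 CPM in healthy libraries to 18.1 to 36.2 CPM in vehicle libraries. Tef, the third D-box activator of the family, fell by 0.88 (SE 0.202, adjusted p = 0.000581), and Dbp did not pass (0.78, adjusted p = 0.0948). Bhlhe40 rose by 1.30 (SE 0.146, adjusted p = 6.04e-08) and Bhlhe41 by 0.95 (SE 0.215, adjusted p = 0.000505). Rora and Rorb did not pass. Under the drug the estimates of Dbp, Tef and Hlf were all above 0, and Dbp alone passed.

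**Figure D5:**
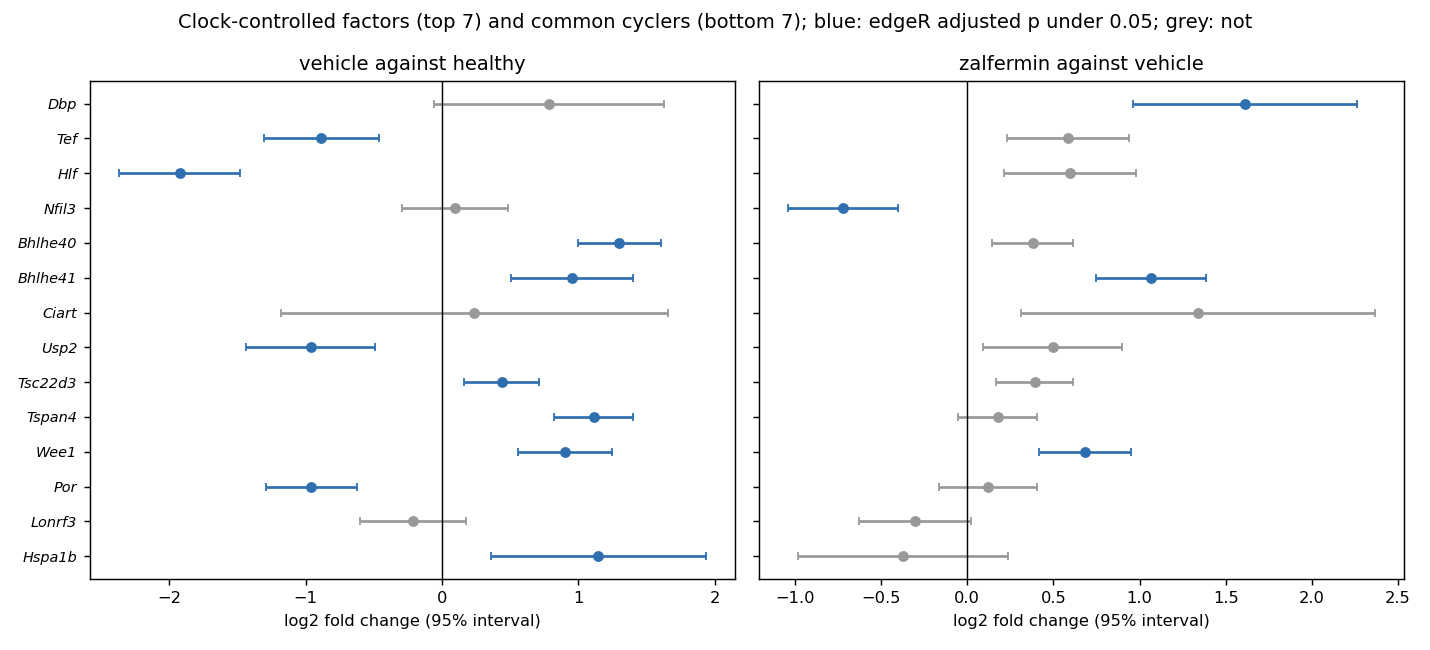
Log2 fold change (horizontal axes, with different ranges) of 7 clock-controlled transcription factors and 7 genes that cycle in many organs, under obstruction and under zalfermin, with 95% intervals; blue marks edgeR adjusted p under 0.05. Under the drug Dbp, Bhlhe41 and Wee1 are higher and Nfil3 is lower, and under obstruction Hlf lies lowest, at -1.93.

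The list of 20 clock modifiers holds mostly enzymes and cofactors that act on clock proteins, and also Arntl2. Of these 20, 9 were higher and 6 lower in vehicle than in healthy libraries, where 36.2% of all tested genes were higher and 28.6% lower. Arntl2, a paralogue of Arntl, rose by 1.81 (adjusted p = 2.42e-07), from a mean of 1.31 to 4.65 CPM, while Arntl itself was lower. Timeless rose by 1.58 and the kinase gene Csnk1e, whose product phosphorylates PER, by 1.53, and Kmt2a rose by 1.01. Nono, Csnk1d, Fbxw7, Prkaa1 and Gsk3b rose by 0.53, 0.47, 0.37, 0.36 and 0.32. Prkaa2, a catalytic subunit of AMP-activated kinase, fell by 1.001, and Nampt, the limiting enzyme of NAD salvage, fell by 0.77. Fbxl21, Fbxw11 and Ncor1 fell by 0.64, 0.33 and 0.21. Of these, Ncor1, Prkaa1 and Fbxl21 stayed past the threshold in only 5, 3 and 4 of the 11 fits that left out a library. Under the drug Nampt rose by 0.52 (SE 0.131, adjusted p = 0.0418) and was past the threshold in 6 of 15 such fits, and no other modifier passed.

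Of 7 genes that cycle in many organs, Hspa1b, Tspan4, Wee1 and Tsc22d3 rose by 1.15, 1.11, 0.91 and 0.44 under obstruction, and Usp2 and Por each fell by 0.96. In that comparison 36.2% of all tested genes were higher and 28.6% lower. The call of Hspa1b was lost without healthy replicate 2 (0.96, adjusted p = 0.0505). Wee1, a cell cycle kinase gene under E-box control, rose again under the drug, by 0.68 (SE 0.128, adjusted p = 0.00689), from a mean of 26.4 to 42.5 CPM.

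Other groups of genes also differed between the groups. Of 10 glucocorticoid-responsive genes, a list that holds Per1, 3 were higher and 2 lower under obstruction, against 36.2% and 28.6% of all tested genes, and those with the smallest p were Klf9 (-0.81, adjusted p = 3.12e-06) and Mt2 (1.52, adjusted p = 4.66e-05). Under the drug 3 rose and none fell, where 0.867% of all tested genes rose and 0.942% fell. Zbtb16 rose by 1.76 (edgeR adjusted p = 0.00371), Klf9 by 0.45 (adjusted p = 0.0212) and Fkbp5 by 0.70 (adjusted p = 0.0383). The summed level of the list was 725.8 to 858.6 CPM in healthy, 602.3 to 784.3 CPM in vehicle and 837.2 to 1155 CPM in zalfermin libraries, with no overlap between vehicle and zalfermin. This sum includes Per1, a member chosen on these same values, and no sum without Per1 was made. The part of glucocorticoid-responsive genes in the clock gene values was not tested. All 10 immediate early genes rose under obstruction, where 36.2% of all tested genes did. The smallest p were those of Atf3 (4.84, edgeR adjusted p = 6.31e-14) and Junb (2.48, adjusted p = 4.93e-11). Under the drug Fosb and Atf3 fell by 1.85 and 0.47 (adjusted p = 0.0311 and 0.0474).

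Levels of cell type markers also differed, and bulk RNA cannot tell whether cell numbers or RNA per cell differed. The marker counts stand beside 36.2% of all tested genes higher and 28.6% lower in vehicle than in healthy libraries. Under the drug 1.81% of all tested genes passed. All 12 proximal tubule markers were lower in vehicle than in healthy libraries, with a summed level of 17654 to 21911 CPM in healthy, 3753 to 7124 CPM in vehicle and 3875 to 7336 CPM in zalfermin libraries. All 10 macrophage markers were higher, at 159.8 to 195.2 CPM in healthy, 1132 to 1508 CPM in vehicle and 949.8 to 1379 CPM in zalfermin libraries, and all 9 fibroblast markers were higher, at 220.8 to 331.1 CPM, 2837 to 5054 CPM and 1705 to 2678 CPM. Of 8 markers each, 7 of the thick limb and distal tubule and 7 of the collecting duct were lower and 7 of T cells were higher. Of endothelial markers 2 of 8 were higher and 1 lower, and of podocyte markers 2 of 6 were higher and 2 lower. The part of these marker shifts in the lower Arntl, Npas2 and Nr1d1 of obstructed kidneys was not tested. Under the drug, Slc5a12 of the proximal tubule list and Wt1 of the podocyte list rose, and Col1a1, Col1a2 and Col3a1 of the fibroblast list fell. No marker of the 5 other lists passed, and the vehicle and zalfermin sums overlapped in every cell type list but that of fibroblasts. Most of the fibroblast sum was collagen: Col1a1, Col1a2 and Col3a1 averaged 745.9, 944.0 and 1178 CPM in vehicle libraries, where the sum averaged 3541 CPM. The other 6 fibroblast markers did not pass, although their estimates were also below 0.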

How the data were processed

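The authors deposited a table of whole-number read counts per gene for 19 libraries, made with a directional kit from whole kidney RNA per the labels' protocols and aligned with STAR 2.7.0f to GRCm38 per the submitters' processing notes. The sources used here do not name the counting program, its strand setting or the annotation; all 55536 gene IDs are in GENCODE M21. Every value column belongs to a library. Genes passed edgeR's filterByExpr (minimum count 10, total 15), which left 16026 and removed 39510. A single quasi-likelihood fit over the 3 groups was made with edgeR 4.0.16 in R 4.3.3 with TMM scaling, Benjamini-Hochberg adjustment over all tested genes and a threshold of 0.05. Standard errors are the log2 fold change over the root of F, and intervals are at 95%. On simulated data with 200 changed genes it was tested first. Alternatives were DESeq2 1.42.0, limma 3.58.1 with voom quality weights, RLE factors, no filter, 2-group fits and leaving out each library.

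Correlations within a group used log2 CPM with a prior count of 2 and exact permutation tests, adjusted over 8. Promoters, 250 bases before to 50 after each start, are from RefSeq on GRCm38.p6; 9 of the 10 members matched, with 13 start sites. The members and all lists were chosen with earlier results of these data known. Named genes are all members, each gene past the threshold in the 4 lists of other clock genes (some items are not reported here), the leading genes of the glucocorticoid and immediate early lists, and the 5 most like and 5 most opposite to Arntl and Nr1d1; cell type lists are given by counts and summed levels.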

Additional observations from a re-analysis of the deposited data

Results flagged for a closer look

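In 4 of the 30 sets of member values by group, a single library lay far from the rest of its group. The gap rule used flags about 1 in 20 sets of independent, normally distributed values. These sets share libraries and are on the CPM scale, so the 4 are not read as an excess over that rate. Clock was 42.1 CPM in vehicle replicate 6, against 75.2 to 92.8 CPM in the other 6 vehicle libraries; this library also had the fewest genes detected. Cry1 was 11.5 CPM in zalfermin replicate 7, against 5.62 to 8.36 CPM in the other 7. Per1 was 18.6 CPM in healthy replicate 1, against 10.4 to 11.04 CPM in the other 3. Per2 was 16.8 CPM in healthy replicate 4, against 5.25 to 6.91 CPM in the other 3.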

How the results depend on the processing

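No paired analysis was possible because the numbers given to replicates only name samples in accession order. Of the values for single genes, 952 kept their direction and side of the threshold, 58 no longer passed, 28 newly passed and 8 changed sign. The sign changes were in small differences. Clock, zalfermin against vehicle, was -0.0465 under voom and ran from -0.0480 to 0.123 with a library left out, and Cry1 was 0.0238 under voom. Cry1, zalfermin against healthy, was -0.0306 with RLE factors, -0.0248 by DESeq2, -0.000635 in the 2-group fit, and between -0.0389 and 0.130 with a library left out. Members past the threshold for zalfermin against vehicle numbered 8 under voom (6 higher, 2 lower), and 2 were lower by DESeq2. With a library left out they numbered 2 to 6, with 1 to 5 higher and 1 to 2 lower. For vehicle against healthy such fits gave 1 to 2 higher and 3 to 5 lower, and for zalfermin against healthy the 2-group fit gave 4 lower. Other clock genes for zalfermin against vehicle numbered 10 by DESeq2 (8 higher, 2 lower), 11 under voom (10 higher), and 4 to 8 with a library left out (3 to 7 higher). With a library left out, r in vehicle libraries ran from -0.90 to -0.47 for Arntl and Per3 and from 0.33 to 0.88 for Arntl and Npas2, and in zalfermin libraries from -0.95 to -0.87 for Arntl and Per3 and from -0.13 to 0.46 for Nr1d1 and Per3. The cause of these changes was not tested. Cry1 and the lowest Per2, Arntl and Npas2 values rest on few reads, which limits their precision. In zalfermin replicate 2 Npas2 had 48 reads and Arntl 67.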

Other observations

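Kidney genes that follow the clock in other studies, most of them transport genes, were listed apart from the clock genes. Of 10 such genes, 8 were lower and 1 higher in vehicle than in healthy libraries, where 28.6% of all tested genes were lower and 36.2% higher. Their summed level was 7004 to 8684 CPM in healthy, 2434 to 3328 CPM in vehicle and 2878 to 4316 CPM in zalfermin libraries. Slc22a8, the organic anion transporter OAT3, fell by 3.29 on the log2 scale under obstruction (edgeR adjusted p = 8.10e-11). Edn1, an endothelin gene and not a transport gene, rose by 3.33 (edgeR adjusted p = 1.60e-13). Under zalfermin 1 of the 10 passed, where 1.81% of all tested genes did: Atp1b1, a subunit of the sodium pump, rose by 0.36 (edgeR adjusted p = 0.0418). All 10 estimates were above 0, and that of Slc22a8 was 0.78 (adjusted p = 0.0526). Most of these genes are also tubule genes, and the proximal tubule markers were lower in the same libraries; the part of cell makeup in these values was not tested.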
